A study of Mus musculus with 8 samples.

Results

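The Iroquois homeobox family of the mouse has 6 members, *Irx1* to *Irx6*, and all 6 were found by symbol among the 53465 genes of a count table from embryonic day 9.5 (E9.5) heart ventricles. The table holds polyA RNA-seq of 4 wild-type (WT) samples and 4 samples labelled Nrg-1flox;Tie2-Cre, called mutants here. Tie2-Cre is a Cre line active in the endothelium and endocardium. Whether it reached other cells here, blood cells among them, was not tested. The floxed gene is *Nrg1*, which encodes the growth factor neuregulin 1. The labels give neither the number of floxed alleles, the Cre status of the WT embryos, the strain nor how many embryos went into a sample. Nothing in the labels says that the samples of a genotype came from separate embryos, so p-values measure the spread between these samples only. *Nrg1* transcripts were still present in the mutants. The 4 WT samples had 11.9, 9.38, 9.94 and 11.7 normalized CPM (counts scaled to library size), against 5.17, 4.27, 5.11 and 5.93 in the mutants. The log2 fold change was -1.07 (SE 0.14) with an edgeR false discovery rate (FDR) of 0.00268. Which cells the remaining *Nrg1* reads came from, and whether from a recombined allele, was not tested.

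Iroquois genes encode transcription factors of the TALE class, whose homeodomain carries 3 extra residues between its first helices. The genes sit in a pair of clusters that arose by duplication, so that each member has a neighbour on its own chromosome and a paralogue on the other. In the heart, *Irx4* is known as a ventricle-restricted gene, *Irx3* and *Irx5* as regulators of ventricular conduction and repolarization, and *Irx1* and *Irx2* as genes of the ventricular septum and trabeculae. Trabeculae are the myocardial ridges that grow into the ventricular lumen beneath the endocardium, and neuregulin 1 from the endocardium acts on ErbB receptors of the myocardium. The comparison asks how the members stand to each other in WT ventricles, and whether neighbours and paralogues change alike in the mutants.

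On GRCm38, the cluster on chromosome 13 runs from *Irx1* (71957921 to 71963723, minus strand) through *Irx2* (72628820 to 72634198, plus strand) to *Irx4* (73260479 to 73269608, plus strand). The 5′ ends of *Irx1* and *Irx2* lie 665.097 kilobases apart, and those of *Irx2* and *Irx4* 631.659. The cluster on chromosome 8 runs from *Irx3* (91798525 to 91802067, minus strand) through *Irx5* (92357625 to 92376286, plus strand) to *Irx6* (92674288 to 92680956, plus strand). It is more compact, with 555.558 kilobases from *Irx3* to *Irx5* and 316.663 from *Irx5* to *Irx6*. In both, the gene at the low end is on the minus strand and the other two on the plus strand.

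The homeobox is where the members are most alike, and it decides which reads can be assigned to a single member. The stretch below codes for the third helix of the homeodomain, the helix that reads DNA. It is shown 5′ to 3′ on the coding strand for each member, as 45 bases from the GENCODE M21 transcript with the longest coding sequence, and capitals mark bases that differ from *Irx3*.
Irx1: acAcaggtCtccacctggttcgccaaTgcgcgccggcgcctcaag
Irx2: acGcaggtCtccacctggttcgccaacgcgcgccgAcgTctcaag
Irx4: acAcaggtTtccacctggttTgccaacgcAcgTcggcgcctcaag
Irx3: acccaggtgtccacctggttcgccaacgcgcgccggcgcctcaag
Irx5: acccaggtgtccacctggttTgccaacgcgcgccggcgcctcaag
Irx6: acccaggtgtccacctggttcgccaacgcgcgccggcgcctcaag
These lie in exon 2 of *Irx1* (chr13:71960004-71960048), *Irx2* (chr13:72630796-72630840), *Irx3* (chr8:91800508-91800552) and *Irx5* (chr8:92359759-92359803), in exon 5 of *Irx4* (chr13:73267655-73267699) and in exon 4 of *Irx6* (chr8:92677368-92677412). All 6 code for the same 15 residues. The members of the chromosome 13 cluster differ from *Irx3* at 3 to 5 bases, *Irx5* at 1 base and *Irx6* at none.

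Over the whole homeobox of 189 bases, the paralogues *Irx2* and *Irx5* were the most alike of the 15 pairs, with 172 bases in common (91%), followed by the paralogues *Irx1* and *Irx3* with 169 (89.4%). The neighbours *Irx3* and *Irx6* came next with 168 (88.9%). *Irx4* and *Irx6*, the other paralogue pair, shared 166 (87.8%), as many as the neighbours *Irx3* and *Irx5* and the neighbours *Irx1* and *Irx2*. The least alike were *Irx2* with *Irx4* and *Irx2* with *Irx6*, at 157 bases each (83.1%).

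A single read here had 60 bases, so only a run of at least that length can leave a read with no way to tell 2 members apart. Such a run occurred in 2 of the 15 pairs, and both are shown because a read that falls inside them fits both members. The first, of 88 bases, is common to *Irx3* (chr8:91800491-91800578, minus strand) and *Irx6* (chr8:92677342-92677429, plus strand), and the second, of 65 bases, to *Irx2* (chr13:72630733-72630797, plus strand) and *Irx5* (chr8:92359696-92359760, plus strand).
Irx3 and Irx6: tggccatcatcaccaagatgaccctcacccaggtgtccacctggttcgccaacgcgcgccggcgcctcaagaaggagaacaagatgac
Irx2 and Irx5: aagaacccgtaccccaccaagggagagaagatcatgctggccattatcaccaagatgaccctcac
Both runs are coding sequence. Of the 2551 windows of 60 bases in the *Irx3* transcript, 29 matched another member exactly and 107 matched with up to 2 mismatches. The numbers were 29 and 103 of 3311 for *Irx6*, 6 and 57 of 2566 for *Irx2*, and 6 and 101 of 2491 for *Irx5*. *Irx1* and *Irx4* had no exact match, and 33 of 2314 and 12 of 2530 windows matched with up to 2 mismatches. The RSEM counts divide reads that match several genes, and 15 of the 48 member values were whole numbers within 0.005, and the other values carry fractions of reads.

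The 8 libraries held 11852372 to 14360323 counts, and the members had between 53 (*Irx3* in mutant sample 1) and 1276 (*Irx4* in WT sample 4) counts in a sample. At those numbers, counting alone gives a coefficient of variation of 2.88% for *Irx4* and 10.7% for *Irx6* in WT. The cardiomyocyte markers were abundant in all samples, with summed levels of 39244.8 to 41238 CPM in WT and 36510.5 to 40410.1 in the mutants, and 0 of 12 passed the edgeR test (2 at an unadjusted p under 0.05, and 2 with DESeq2). Without mutant sample 1, 2 passed, *Actc1* at a log2 fold change of 0.16 (FDR 0.00794) and *Ttn* at -0.23 (FDR 0.0491), and without mutant sample 2, 1 passed. Mutant sample 1 stood apart from the other samples on a principal component that held 37.4% of the variance. It also had the highest share of hemoglobin counts, 6.26% against 1.93 to 3.89% in the other mutants and 0.67 to 0.80% in WT. Values without this sample are given beside each member and where they change a list's count.

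In WT ventricles, *Irx4* had by far the highest level of the family. Per kilobase of transcript, WT samples had 34.5 ± 1.62 CPM of *Irx4* (SD, n = 4), 12.2 ± 0.95 of *Irx2*, 9.93 ± 0.48 of *Irx1*, 9.33 ± 0.82 of *Irx3*, 8.52 ± 0.75 of *Irx5* and 1.91 ± 0.57 of *Irx6*. By this length, each WT sample had *Irx4* first, *Irx2* next and *Irx6* last. Divided by the union of exons instead, WT sample 4 had 8.98 of *Irx2* and 9.08 of *Irx1*, so *Irx2* was not second there. *Irx1*, *Irx3* and *Irx5* had ranges that overlapped (9.24 to 10.3, 8.24 to 10.2 and 7.73 to 9.41 CPM per kilobase), although *Irx3* was above *Irx5* in each of the 4 WT samples, and *Irx1* was above both in 3 of 4. Of 14439 genes tested that had a length, the median level was 7.78 CPM per kilobase, and *Irx4* stood at percentile 84.4, the middle members between 52.2 and 61.6, and *Irx6* at 23.6. Among the other TALE genes, which include the Meis and Pbx cofactors, *Pbx2* (54.7 CPM per kilobase) was above *Irx4*, and *Meis2* (28.8) was just below it. Levels per length were a description and were not tested.

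**Figure D1:**
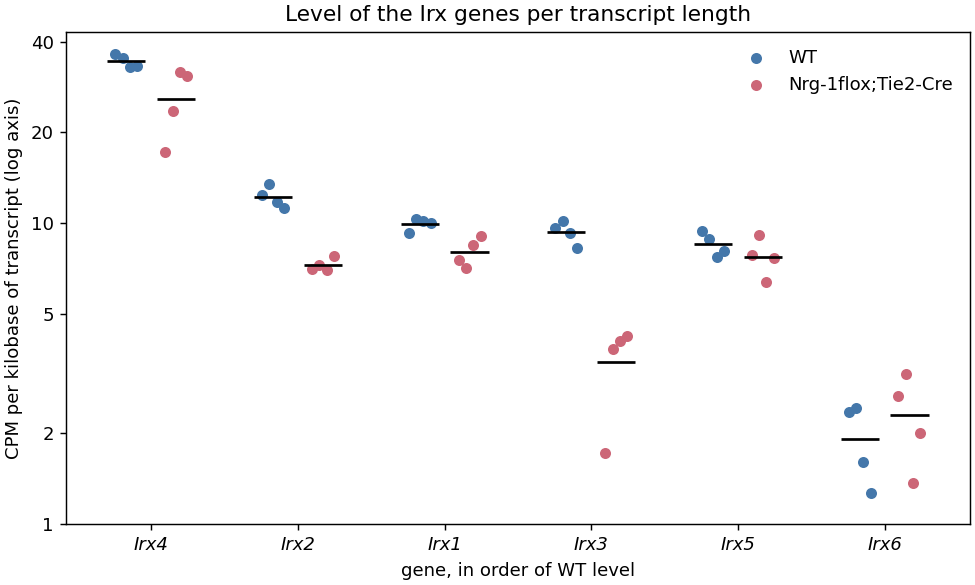
Level of each Irx gene in CPM per kilobase of transcript on a log axis, with 1 point per sample (WT blue, Nrg-1flox;Tie2-Cre red) and a black line at the mean of 4 samples. *Irx4* is highest in all samples at 17.3 to 36.4, and *Irx3* is the member that leaves the middle of the order in the mutants, with 1.72 to 4.2 against 8.24 to 10.2 in WT.

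Summed by cluster, the chromosome 13 genes had 56.6 ± 2.24 CPM per kilobase in WT and the chromosome 8 genes 19.8 ± 1.97, a ratio of 2.88 ± 0.18. In the mutants the sums were 41.1 ± 7.69 and 13.5 ± 1.92, both below all WT samples (54.6 to 59.0 and 17.6 to 21.5 in WT, against 31.8 to 47.6 and 11.8 to 16.02). The ratio between the clusters was 3.10 ± 0.77 in the mutants, whose range of 2.36 to 4.02 holds the WT range of 2.71 to 3.10. Within the family, *Irx3* supplied 12.2 ± 0.57% of the summed level in WT and 6.17 ± 1.51% in the mutants, with no overlap. *Irx5* supplied 11.1 ± 0.55% and 14.5 ± 3.41%. *Irx4* supplied 45.2 ± 1.05% and 46.7 ± 6.57%. In bulk tissue, fewer cells that express a gene and less of its RNA per cell cannot be told apart, here and in all comparisons that follow.

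Against WT, 2 of the 6 members fell in the mutants at an FDR under 0.05, *Irx3* and *Irx2*, and none rose. Of the 14451 genes tested with edgeR's quasi-likelihood test, 1245 (8.62%) passed in either direction and 506 (3.5%) were lower. In 4 members, all mutant samples were below all WT samples, as was so for 9.45% of all genes. The median log2 fold change was -0.36 over the members and -0.0014 over all genes tested. Without mutant sample 1 the same 2 members passed, while 17.2% of 14630 genes passed and 7.89% were lower. Each cluster thus held 1 member that passed this threshold. On chromosome 13, *Irx1* and *Irx4* missed it but were also lower without overlap, whereas on chromosome 8 *Irx5* and *Irx6* overlapped between the genotypes. The chromosome 8 cluster had the wider spread of log2 fold changes between its members, 1.69, against 0.44 on chromosome 13.

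**Figure D2:**
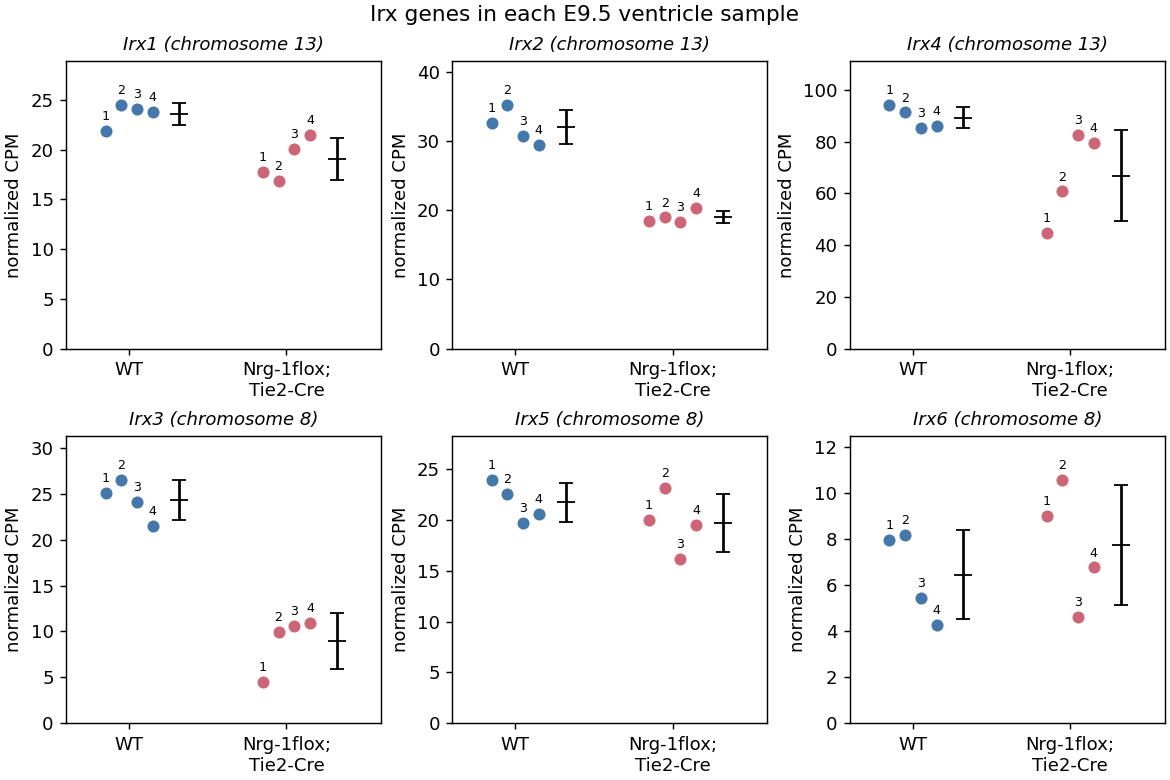
Normalized CPM of each Irx gene in each sample, with the replicate number above the point and the mean ± SD of 4 samples as a black bar. The genotypes do not overlap for *Irx1*, *Irx2*, *Irx4* and *Irx3* and overlap for *Irx5* and *Irx6*. Mutant sample 1 is lowest for *Irx3* (4.49 CPM) and *Irx4* (44.7 CPM).

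*Irx3*, at the low end of the chromosome 8 cluster, had the largest change of the family and was the 27th lowest fold change of the 14451 genes. WT samples had 25.1, 26.6, 24.2 and 21.5 CPM, and mutants had 4.49, 9.92, 10.6 and 10.96. The counts behind these values were 329, 371, 294 and 318 in WT against 53, 137, 147 and 133. All mutants were at or below 10.96 CPM, and mutant sample 1 was below the other mutants, which lay close together. The log2 fold change was -1.43 (SE 0.22, 95% interval -1.93 to -0.93) with an FDR of 0.00471 in edgeR. Without mutant sample 1 it was -1.21 (SE 0.095) with an FDR of 1.22e-04, and 3 mutant samples had 10.5 ± 0.53 CPM, or 0.431 of the WT mean.

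*Irx2*, in the middle of the chromosome 13 cluster, had 32.6, 35.2, 30.8 and 29.5 CPM in WT and 18.5, 18.97, 18.3 and 20.4 in the mutants. The mutants were tightly grouped, with a coefficient of variation of 4.84% that was below the 6.38% expected from counting alone, and mutant sample 1 was not set apart. *Irx2* fell by 0.75 on the log2 scale (SE 0.077, 95% interval of the log2 fold change -0.92 to -0.58, edgeR FDR 0.00152). The mutants thus had 0.594 of the WT mean. Without mutant sample 1 the log2 fold change was -0.74 (FDR 3.77e-04).

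*Irx1*, the neighbour of *Irx2*, had 21.9, 24.5, 24.1 and 23.8 CPM in WT and 17.8, 16.9, 20.1 and 21.5 in the mutants. The groups did not overlap, but the highest mutant came within 0.5 CPM of the lowest WT sample. The log2 fold change was -0.31 (SE 0.092, 95% interval -0.51 to -0.10) and missed the threshold with an edgeR FDR of 0.0679, or -0.28 with an FDR of 0.0603 without mutant sample 1.

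*Irx4*, the ventricular member, had 94.3, 91.3, 85.5 and 86.2 CPM in WT and 44.7, 60.8, 82.5 and 79.6 in the mutants. No mutant reached the lowest WT sample, yet the mutants varied much more than WT, with a coefficient of variation of 26.4% against 4.69%. The log2 fold change was -0.42 (SE 0.16, 95% interval -0.78 to -0.051) with an edgeR FDR of 0.149. Without mutant sample 1 it was -0.27 (SE 0.094), with an FDR of 0.0800.

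*Irx5* lies next to *Irx3* and had overlapping genotypes. WT samples had 24.0, 22.6, 19.7 and 20.6 CPM, and mutants had 20.01, 23.2, 16.2 and 19.5. Its log2 fold change was -0.14 (SE 0.11, edgeR FDR 0.493). The 95% interval, -0.40 to 0.12, does not reach the size of the change of *Irx3*. Its log2 fold change was -0.15 without mutant sample 1, -0.22 without mutant sample 2 and -0.054 without mutant sample 3.

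*Irx6*, the lowest member, had 7.94, 8.17, 5.42 and 4.26 CPM in WT and 8.99, 10.6, 4.6 and 6.76 in the mutants. The groups overlapped widely, and the spread within WT (29.7%) was well above that expected from counting. Its log2 fold change of 0.26 (SE 0.28, edgeR FDR 0.617) had a 95% interval of -0.37 to 0.89, which is too wide to say more. Its log2 fold change was 0.18 without mutant sample 1, 0.076 without mutant sample 2 and 0.45 without mutant sample 3.

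**Figure D3:**
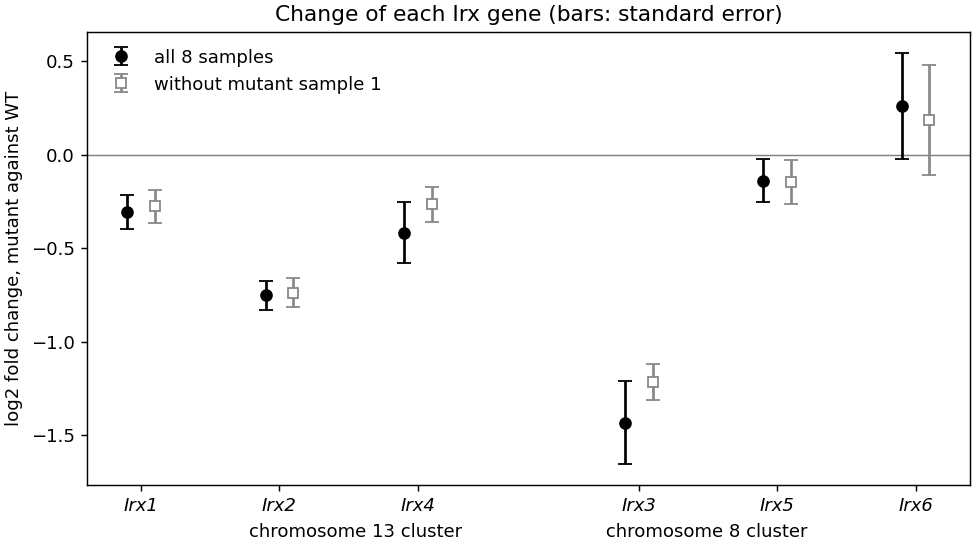
Log2 fold change of each Irx gene in mutants against WT with its standard error, with all 8 samples (filled circles) and without mutant sample 1 (open squares). Leaving that sample out moves *Irx3* from -1.43 to -1.21 and *Irx4* from -0.42 to -0.27, and the other 4 members keep their sign.

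Whether neighbours changed by different amounts was tested on the log2 ratio of their counts in each sample, in which the depth of the library cancels. Over 9 pairs, the 70 relabellings of 4 against 4 samples allow a smallest two-sided exact permutation p of 0.0286, and 5 pairs reached it. With Benjamini-Hochberg adjustment these 5 pairs had an adjusted p of 0.0514, so none passed 0.05. These 5 pairs are not separate results, since each holds *Irx3* or *Irx2*, the members that passed the test of their own change. The sizes were as follows, with all 4 mutants beyond all 4 WT samples in each of these 5 pairs.

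On chromosome 8, the log2 ratio of *Irx3* to *Irx5* was 0.067, 0.24, 0.29 and 0.060 in WT and -2.14, -1.22, -0.61 and -0.83 in the mutants. Its change was -1.37 (SE 0.34), which is a ratio in the mutants of 0.388 of that in WT. The ratio of *Irx3* to *Irx6* changed by -1.76 (SE 0.51), with WT samples at 1.66 to 2.33 and mutants at -0.99 to 1.19. The ratio of *Irx5* to *Irx6* changed by -0.39 (SE 0.24), its genotypes overlapped, and the exact permutation p was 0.171. In mutant sample 1 *Irx3* was the lowest of the 6 members per kilobase, below *Irx6*, which was not seen in another sample.

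On chromosome 13, the log2 ratio of *Irx1* to *Irx2* was -0.57, -0.52, -0.36 and -0.31 in WT and -0.054, -0.17, 0.13 and 0.079 in the mutants, a change of 0.44 (SE 0.093). Both ratios with *Irx4* had overlapping genotypes: that of *Irx1* to *Irx4* changed by 0.15 (SE 0.17, exact permutation p = 0.457) and that of *Irx2* to *Irx4* by -0.29 (SE 0.20, exact permutation p = 0.229). In the latter, mutant sample 1 had a ratio of -1.27, above all WT samples, and the other 3 mutants were below them. Without that sample, *Irx2* to *Irx4* changed by -0.46 and was 1 of 6 pairs at the smallest p that 35 relabellings allow, with an adjusted p of 0.0429.

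Paralogues were set against each other across the clusters. The log2 ratio of *Irx1* to *Irx3* was -0.20 to 0.15 in WT and 0.76 to 1.98 in the mutants (change 1.20, SE 0.29). That of *Irx2* to *Irx5* was 0.44 to 0.64 in WT and -0.29 to 0.18 in the mutants (change -0.60, SE 0.11). The member that passed the test of its own change was *Irx3* in the first pair, where *Irx1* was also lower without overlap (-0.31), and *Irx2* in the second. *Irx4* to *Irx6* changed by -0.70 (SE 0.48) with overlapping genotypes and an exact permutation p of 0.229, and by -0.43 without mutant sample 1. Without that sample, the 5 pairs named first had the same unadjusted p of 0.0286, the smallest possible. Their adjusted p was 0.0429 because a sixth pair, *Irx2* to *Irx4*, reached that p as well, and says no more of the 5 pairs than before. Without that sample the changes were 0.45 for *Irx1* to *Irx2*, -1.05 for *Irx3* to *Irx5*, -1.36 for *Irx3* to *Irx6*, 0.93 for *Irx1* to *Irx3* and -0.58 for *Irx2* to *Irx5*.

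**Figure D4:**
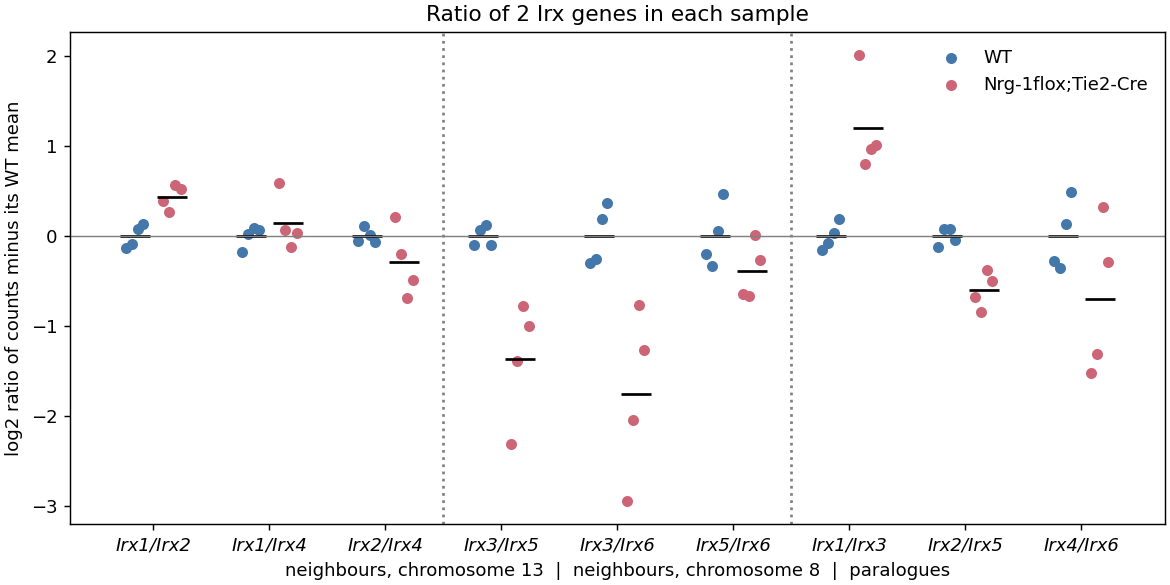
Log2 ratio of the counts of 2 Irx genes in each sample, minus the WT mean of that ratio, with WT in blue, Nrg-1flox;Tie2-Cre in red and a black line at the mean of 4 samples. The mutants lie wholly apart from WT in *Irx1*/*Irx2*, *Irx3*/*Irx5*, *Irx3*/*Irx6*, *Irx1*/*Irx3* and *Irx2*/*Irx5*, and overlap in the other 4 pairs.

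The genes around the clusters were read in the same fit. Of the 16 nearest protein-coding genes, 4 on each side of each cluster, 11 were tested, of which 2 were higher and 0 lower, beside 5.11% higher and 3.5% lower of all genes tested. *Lpcat1*, beyond *Irx4*, rose by 0.62 (SE 0.12, edgeR FDR 0.0146), and *Rbl2*, beyond *Irx3*, rose by 0.44 (SE 0.10, edgeR FDR 0.0265). With 1 sample left out, *Lpcat1* passed in 6 of 8 fits, missing without WT sample 3 or 4, and *Rbl2* in 3 of 8, missing without mutant sample 3 or 4 or WT sample 1, 3 or 4 (FDR up to 0.0884). *Fto* adjoins *Irx3*, and its introns are known to hold enhancers that contact *Irx3*. It had 115 ± 5.93 CPM in WT and 114 ± 2.57 in the mutants, a log2 fold change of -0.0095 (edgeR FDR 0.938).

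Across the spans of the clusters, the table holds 24 further annotated genes, nearly all non-coding, and only 2 had enough counts to be tested. These were examined after the values of the members were known. *Crnde*, a long non-coding RNA whose 5′ end is 1505 bases from that of *Irx5* on the opposite strand, had 5.65, 5.80, 5.999 and 3.51 CPM in WT and 2.12, 2.32, 2.66 and 4.04 in the mutants. The lowest WT and highest mutant samples crossed, and its log2 fold change of -0.91 (SE 0.25) had an edgeR FDR of 0.0512. *Gm20554*, whose 5′ end is 256 bases from that of *Irx2*, had a log2 fold change of -0.34 (SE 0.32, edgeR FDR 0.566). *Irx3os*, antisense to *Irx3*, was under the filter, with 14, 8, 9 and 9 counts in WT and 4, 6, 4 and 1 in the mutants. Its exons overlap those of *Irx3* by 124 bases, and the use of strand in the counting is not given in the sources used here, so reads there cannot be assigned to one of the pair. *Irx6* likewise overlaps the antisense gene *Gm45505* by 152 bases, but that gene had at most 1 count in a sample.

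**Figure D5:**
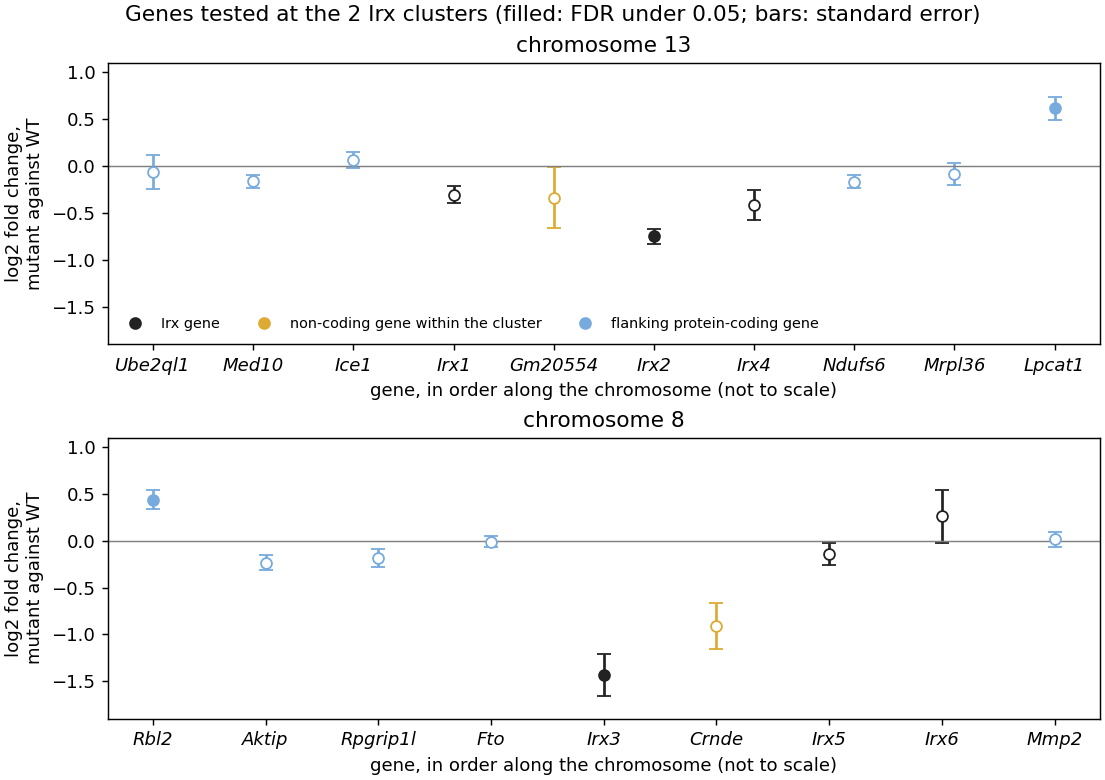
Log2 fold change with its standard error for the genes tested at the 2 clusters, in order along chromosome 13 (top) and chromosome 8 (bottom) and not to scale. Filled points have an FDR under 0.05. *Irx2* (-0.75) and *Irx3* (-1.43) are the filled Irx genes, and *Lpcat1* (0.62) and *Rbl2* (0.44) the filled flanking genes.

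The other genes of the Irx setting were read from lists of known partners and targets, beside the 8.62% of all genes that passed. Of 11 other TALE homeobox genes tested, 1 was lower and 0 higher, namely *Meis1*, a cofactor of homeodomain proteins, which fell by 0.31 (SE 0.054, edgeR FDR 0.00850) from 86.8 ± 3.30 to 70.1 ± 1.99 CPM. A count of 1 in 11 is near the share of all genes and says nothing particular of the TALE genes. Of 11 cardiac factors and cofactors tied to Irx proteins, 3 were lower and 0 higher (6 and 0 at an unadjusted edgeR p under 0.05). *Mef2c*, a core myocardial transcription factor, fell by 0.42 (SE 0.071, edgeR FDR 0.00718), *Hand1*, a factor of the left ventricle, by 0.62 (SE 0.13, edgeR FDR 0.0169), and *Smyd1*, a muscle histone methyltransferase, by 0.33 (SE 0.085, edgeR FDR 0.0401). The number called in that list was 5 without mutant sample 1, of which 4 were lower and 1 higher (*Nkx2-5*, 0.22, FDR 0.0149), 5 without mutant sample 2 and 1 without WT sample 1, 2 or 4. With all samples it was 5 in DESeq2, and 4 with upper-quartile scaling or the likelihood ratio test. *Mef2c* passed in all 8 fits with a sample left out, *Hand1* in 5 and *Smyd1* in 2.

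Of 6 tested genes known to be under Irx control, 1 was lower and 1 higher. *Cxcl12*, a chemokine gene, fell by 0.73 (SE 0.11, edgeR FDR 0.00444). *Kcnd2*, the potassium channel gene that *Irx5* represses in the adult ventricle, had 2.83, 3.15, 1.73 and 1.15 CPM in WT and 4.75, 6.01, 3.96 and 4.62 in the mutants, from 17 to 83 counts per sample. It rose by 1.13 (SE 0.29, edgeR FDR 0.0432), with no overlap between the genotypes. The *Kcnd2* call was lost in 6 of the 8 fits with a sample left out, all but those without mutant sample 1 or WT sample 2 (FDR up to 0.124), whereas *Cxcl12* passed in all 8. The connexin genes did not pass: *Gja5*, which *Irx3* is known to raise in the conduction system, had 94.9 ± 18.1 CPM in WT and 74.0 ± 23.4 in the mutants (edgeR FDR 0.377), and *Gja1*, which *Irx3* represses there, had 116 ± 18.4 and 127 ± 26.1 (edgeR FDR 0.654). In mutant sample 1 *Gja5* was at 39.8 CPM, and its log2 fold change was -0.36 with that sample and -0.15 without it. That of *Gja1* was 0.13 and -0.021. *Nppa*, a natriuretic peptide gene of the trabecular myocardium, had 965 ± 117 and 1088 ± 131 CPM (edgeR FDR 0.329), with a log2 fold change of 0.17, or 0.089 without mutant sample 1.

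Among 12 markers of the trabeculae, the compact wall and the conduction system, 7 were lower and 1 higher, with a median log2 fold change of -0.36 beside -0.0014 for all genes. The list was not chosen independently of these samples, so it is no independent evidence of a direction. The 8 calls became 3 without WT sample 1, 4 without WT sample 2, 3 or 4, and 5 without mutant sample 4. The lower ones with the smallest p were *Slit2* (a guidance ligand, -1.72, edgeR FDR 0.00119), *Cgnl1* (a junction protein gene, -0.41, FDR 0.00185), *Cntn2* (a conduction marker, -1.68, FDR 0.0104, from 3 to 29 counts per sample) and *Bmp10* (a trabecular growth factor gene, -0.57, FDR 0.0159). *Slit2*, *Cgnl1* and *Cntn2* passed with each sample left out, and *Bmp10* in 4 of 8 such fits (FDR up to 0.0579). *Nppb* rose by 0.94 (SE 0.20, edgeR FDR 0.0218) and passed in 5 of 8. *Hey2*, the marker of the compact wall, had a log2 fold change of 0.28 (SE 0.10) with an edgeR FDR of 0.126. Mutant sample 1 had 108 CPM of *Hey2* against 76.2 to 83.6 in the other mutants, and without it the log2 fold change was 0.16 (FDR 0.0614). Of *Nrg1* and its receptor genes, only *Nrg1* passed. Without mutant sample 1, *Erbb4* (FDR 0.0180) and *Erbb2* (FDR 0.0138) passed as well, in opposite directions.

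Markers of other cells were counted beside the 8.62% of all genes that passed (3.5% lower, 5.11% higher). All 10 erythroid markers rose, and their summed level was 6693.8 to 8095.54 CPM in WT and 19838 to 68699.5 in the mutants, highest in mutant sample 1, where *Irx3* and *Irx4* were lowest. That sample also had the lowest summed level of the cardiomyocyte markers (36510.5 CPM) and of the factors tied to Irx proteins (1351.24 CPM). Its sums over the chamber identity genes (20035.8 CPM) and the wall markers (1384.81 CPM) were the highest of the mutants. Removing hemoglobin and mitochondrial genes before normalization was 1 of 8 alternatives in which the log2 fold change of *Irx3* was between -1.49 and -1.42 and that of *Irx2* between -0.77 and -0.74. Outflow tract markers were lower in 4 of 7 tested (*Sema3c*, *Rspo3*, *Fgf10* and *Wnt11*), with summed levels of 142 to 153 CPM in WT and 90.4 to 120 in the mutants. That count was 2 without WT sample 4. Epicardial markers were higher in 2 of 7 (*Wt1* and *Tbx18*), or in 5 at an unadjusted edgeR p under 0.05. Their summed level was 194 to 255 CPM in WT and 291 to 494 in the mutants. Without mutant sample 1, 4 passed, but 1 (*Wt1*) without any single WT sample. Of 9 endocardial markers, 1 was lower (*Tek*), with 938 to 1022 CPM in WT and 828 to 893 in the mutants. At an unadjusted edgeR p under 0.05, 5 of these 9 were lower and 0 higher. The share of all genes at that unadjusted p is not given here. *Tek* passed in 2 of 8 fits with a sample left out, those without mutant sample 1 or 2, in each of which 2 endocardial markers passed, and 0 passed in the other 6. Of 7 chamber identity genes tested 0 passed (1 at an unadjusted p under 0.05, and 1 with DESeq2 or without mutant sample 2). Of 8 endoderm markers listed, 3 were tested and 1 was higher (*Sox17*). The endoderm markers not tested all had lower means in the mutants, with overlapping genotypes and at most 33 counts in a sample. The only neural marker tested, *Sox3*, had a log2 fold change of 0.64 (edgeR FDR 0.0859), and it passed with DESeq2, with the likelihood ratio test and without mutant sample 1 (0.81, FDR 0.00226). Whether these markers' levels bear on the changes of *Irx2* and *Irx3* was not tested.

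As a description of which genes varied most like each member within the genotypes, genes were ranked by Pearson's r of log2 CPM over the 8 samples after the genotype means were subtracted, among 14450 genes. The nearest were *Exo5* and *Rab7* for *Irx1* (r = 0.995 and 0.980), *Sorbs2*, *Plce1* and *Rab43* for *Irx2* (0.979 to 0.957) and *Psmd3*, *Zdhhc24* and *Ung* for *Irx4* (0.995 to 0.988). For the chromosome 8 genes they were *Smarcc2*, *Bcl7c* and *Dync1li2* for *Irx3* (0.998 to 0.997), *Gas2*, *Cox6c* and *Nrk* for *Irx5* (0.967 to 0.959) and *Col6a1*, *Amhr2* and *Zfp326* for *Irx6* (0.988 to 0.983). No member had another member among its 3 nearest genes. With 8 points and 14450 genes, values this high were found for all 6 members, and nothing is read from the names.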

How the data were processed

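The authors deposited RSEM expected counts per gene, which are not scaled for depth or length. The submitters' processing notes name cutadapt, RSEM 1.3.1 and the build GRCm38. The aligner and the strand setting are not given in the sources used here. Libraries were made from 60-base single reads of polyA RNA, for which the labels name no molecular identifiers, so counting precision covers counting error only. Expected counts were rounded to whole numbers, and 53274 of 53465 genes were given a symbol from a table of gene names. Genes were tested with edgeR 4.0.16 in R 4.3.3 (trimmed mean of M-values normalization, filterByExpr by genotype, quasi-likelihood test, Benjamini-Hochberg over all genes, FDR threshold 0.05). The code was tested on simulated data. Standard errors are the log2 fold change over the square root of F, and 95% intervals use the degrees of freedom of that test. Gene pairs were compared by log2((count + 0.5)/(count + 0.5)) with a two-sided exact permutation test. Levels were divided by the length of the GENCODE M21 transcript with the longest coding sequence. No 2 replicates agreed within counting error (chi-square of at least 3.59 per degree of freedom), and each was counted as 1 sample.

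The members and gene lists were chosen with earlier results of these data known. Named were all members, *Nrg1*, up to 4 called genes of each list by smallest p, *Nppa*, *Gja5*, *Gja1*, *Kcnd2*, *Hey2*, *Bmp10* and *Fto*, and the 3 nearest genes of each member, of which 1 is not reported here; *Crnde*, *Gm20554*, *Irx3os*, *Gm45505*, *Pbx2*, *Meis2*, *Erbb2*, *Erbb4*, *Lpcat1*, *Rbl2*, *Nppb*, *Actc1*, *Ttn*, *Nkx2-5*, *Sox3*, *Tbx3* and *Etv1* were named after their values were seen or as called genes of a list. Alternatives were DESeq2 1.42.0, upper-quartile scaling, 2 other filters, limma-voom (limma 3.58.1), a likelihood ratio test, removal of hemoglobin and mitochondrial genes, a replicate block, and each sample left out.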

Additional observations from a re-analysis of the deposited data

Results flagged for a closer look

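In 38 groups of 4 samples, 3 had a sample whose gap to the next was a large part of the group's range, above Dixon's 95% critical value for 4 samples, where chance alone would give about 1.9. *Irx3* in mutant sample 1 was at 4.49 CPM with the other mutants at 9.92 to 10.96, a gap of 0.839 of the range. The log2 ratio of *Irx1* to *Irx3* in the same sample was 1.98, with the others at 0.76 to 0.97, a gap of 0.83 of the range. *Crnde* in WT sample 4 was at 3.51 CPM with the others at 5.65 to 5.999, a gap of 0.86 of the range. The first 2 share the same *Irx3* value and are not separate evidence.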

How the results depend on the processing

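*Irx2* and *Irx3* passed, and *Irx1*, *Irx4*, *Irx5* and *Irx6* did not, in each of 8 alternative fits and 8 fits that left out 1 sample, with no change of sign. For *Irx3* the log2 fold change ranged from -1.53 to -1.21 with a sample left out, for *Irx2* from -0.79 to -0.70, and for *Irx1* the FDR ranged from 0.0510 to 0.157 over all these fits. With a sample left out, *Irx4* ranged from -0.53 to -0.27, *Irx5* from -0.22 to -0.054 and *Irx6* from 0.076 to 0.45. The number of genes called depended strongly on the samples: it was 1245 (739 higher, 506 lower) with all samples and, with 1 left out, between 509 and 2523 (335 to 1368 higher, 174 to 1155 lower), the highest without mutant sample 1. Same-numbered samples did not deviate together (correlations of 0.011, -0.091, -0.0038 and 0.019), and with the replicate block 616 genes were called (398 higher, 218 lower), among them 2 of the 4 outflow markers and 6 of the 8 wall markers, and not *Tek* (FDR 0.0832), *Rbl2* (FDR 0.0868), *Tbx3* (FDR 0.0523) or *Etv1* (FDR 0.0635). In sign flips over same-numbered pairs the smallest p is 0.125, and *Irx1* to *Irx2* changed by 0.44 with an adjusted p of 0.188. Without 1 sample, the change of the log2 ratio was 0.39 to 0.49 for *Irx1* to *Irx2*, -0.46 to -0.16 for *Irx2* to *Irx4*, -1.56 to -1.05 for *Irx3* to *Irx5*, -2.09 to -1.36 for *Irx3* to *Irx6*, 0.93 to 1.33 for *Irx1* to *Irx3*, and -0.67 to -0.52 for *Irx2* to *Irx5*. These 6 pairs had an adjusted p of 0.0429 without mutant sample 1, all at the smallest p possible and under 0.05 only because 6 pairs tied there. With any other sample left out, it was 0.0514 to 0.103 for 5 of them and up to 0.429 for *Irx2* to *Irx4*. The ranges of the pairs that did not pass were -1.04 to -0.43 for *Irx4* to *Irx6* and -0.52 to -0.23 for *Irx5* to *Irx6*, and 1 pair changed sign there, *Irx1* to *Irx4*, to -0.0034 (range to 0.23). The cause was not tested. Dividing by the union of exons lowered WT levels to 8.997 (*Irx1*), 9.76 (*Irx2*) and 6.95 (*Irx5*) CPM per kilobase.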

Other observations

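*Irx6* was higher in samples 1 and 2 than in samples 3 and 4 of both genotypes: 7.94 and 8.17 against 5.42 and 4.26 CPM in WT, and 8.99 and 10.6 against 4.6 and 6.76 CPM in the mutants. The numbers name no pairing in the labels, and across genes same-numbered samples did not deviate together. That check went by single numbers and did not set samples 1 and 2 against samples 3 and 4. The split of *Irx6* was noticed in the data and was not tested.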
